A study of Rattus norvegicus with 12 samples.

Results

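MicroRNAs encoded inside genes of coenzyme A, cholesterol and mitochondrial metabolism were measured in the soleus, a postural hindlimb muscle of mainly slow fibres. The 4 mature miRNAs, rno-miR-103, rno-miR-107, rno-miR-33 and rno-miR-378 (written below without rno-, the prefix of the rat), were taken by name from the 677 rat miRNAs of the array, without their partner strands (the star strands, cut from the other arm of the same hairpin). All 4 were detected on 12 of 12 arrays, as were 162 of the 677 miRNAs. The samples were soleus RNA of 12 male Sprague-Dawley rats at 1 year of age, 6 born to dams on a control diet and 6 born to dams on a high fat diet while pregnant and nursing. Per the methods, the dams ate these diets from 3 weeks before mating, and the high fat diet also held more sucrose. The offspring themselves ate chow after weaning, so that the groups differed in the diet of the dam. The methods name no transgene and no drug treatment of these rats other than isoflurane anaesthesia when the muscle was taken. Each rat had 1 one-colour Agilent microarray, spread over 2 slides of 3 control and 3 high fat rats each. The labels name each rat by a letter and a number (such as H3) but do not say whether rats were littermates, so p-values rest on the spread between rats taken as separate.

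A miRNA that lies in an intron can be cut from the same primary transcript as its host mRNA, which ties its supply to the transcription of the host. miR-103 and miR-107 come from introns of the Pank genes, which encode pantothenate kinases, the enzymes of the committed step of coenzyme A synthesis, and both miRNAs are known for dampening insulin sensitivity in liver and fat. miR-33 lies in Srebf2, the gene of the transcription factor that drives cholesterol synthesis and uptake, and represses Abca1, the cholesterol efflux pump. miR-378 lies in Ppargc1b, the gene of a coactivator of mitochondrial genes, and is known for acting on mitochondrial metabolism and fatty acid oxidation. In the RefSeq gene table of the rat build GRCr8, Mir103a1 lay within the bounds of Pank3, Mir103a2 within Pank2, Mir107 within Pank1, Mir33 within Srebf2 and Mir378 within Ppargc1b, each on the strand of its host. That table gives no exons, so the intronic position itself is background and was not checked, and host mRNAs were not measured on these arrays.

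The mature sequences are shown because 2 of the 4 miRNAs are nearly the same molecule while the other 2 are unrelated to them, which decides how far their signals are separate measurements. The sequences are those of RefSeq (GRCr8), with the seed, bases 2 to 8, in capitals, and all 4 names found an entry:
miR-103: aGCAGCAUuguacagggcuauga
miR-107: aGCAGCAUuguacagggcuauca
miR-33: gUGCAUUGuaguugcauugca
miR-378: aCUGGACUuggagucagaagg

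miR-103 and miR-107 share the seed GCAGCAU and 22 of 23 bases. Their 1 difference is G22C (the miR-103 base, the position from the 5′ end, then the miR-107 base), next to the last base. How well the array's probes separate these sequences was not tested here, and the signals of the pair may share molecules. miR-33 and miR-378 have seeds of their own, which no other mature rat miRNA of the table holds. In contrast, the seed of the miR-15 family, AGCAGCA, equals bases 1 to 7 of miR-103 and miR-107, as in its member miR-16:
miR-16: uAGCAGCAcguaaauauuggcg

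The hairpins of the Pank miRNAs are shown with the mature strand in capitals, since 2 genes give the same miR-103 and their products cannot be told apart on the array. In GRCr8, Mir103a1 lies at chr10:20748474-20748559 on the plus strand, Mir103a2 at chr3:138963227-138963312 on the plus strand and Mir107 at chr1:241750418-241750504 on the minus strand.
Mir103a1: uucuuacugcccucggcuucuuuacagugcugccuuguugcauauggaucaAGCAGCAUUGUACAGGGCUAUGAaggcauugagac
Mir103a2: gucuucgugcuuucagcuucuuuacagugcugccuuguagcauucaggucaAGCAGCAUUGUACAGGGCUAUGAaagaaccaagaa
Mir107: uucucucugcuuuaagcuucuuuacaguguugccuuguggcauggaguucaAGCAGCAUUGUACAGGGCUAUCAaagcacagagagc

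All 3 hairpins carry the mature strand on the 3′ arm, at bases 52 to 74. Mir33, at chr7:115593952-115594020 on the plus strand, carries it on the 5′ arm, at bases 6 to 26, and is shown for that contrast:
Mir33: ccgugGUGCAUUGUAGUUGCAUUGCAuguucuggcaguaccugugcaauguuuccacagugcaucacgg

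Signals are given below as scaled signals. Each array's signals were divided by a factor of its own, the 75th percentile of the 162 common miRNAs (864.5 to 1911 signal units), and multiplied by the geometric mean of these factors. Anything under 5.165 was raised to that floor. The array's skeletal muscle miRNAs bore out the tissue: 6 of 6 (miR-1, miR-133a, miR-133b, miR-206, and miR-499 and miR-208b-3p of the slow myosin genes) were tested, with summed signals of 165393 to 289822 in control rats and 148139 to 261082 in high fat rats. Of the epithelial miR-200 family, 3 of 5 were detected on no array. The high fat rat H3 lay outside the control range in some of these sums, but not in all. Its sum was 4863 for 3 vessel miRNAs, against 10082 to 12000 in control rats. For 2 brown fat miRNAs it was 945 against 450 to 569, and for the epithelial miRNAs 21.0 against 0 (none detected). The lowest high fat rat for brown fat, at 281, also lay outside the control range. H3 was within the control range for the muscle miRNAs (245085) and for 6 blood miRNAs (4515 against 2304 to 4518). For 3 liver miRNAs it was the lowest high fat rat, at 36.2, within the control range of 30.7 to 507. The part of these differences in the results was not tested, and values are therefore also given without H3.

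No difference between the diets of the dams passed the test for any of the 4 intronic miRNAs, and the groups overlapped for each of them. limma, a linear model with a spread shared across miRNAs, called 0 of the 193 miRNAs detected on at least 6 arrays at an adjusted p under 0.05 (0% of those tested), and 2 of 193 at an unadjusted p under 0.05 (1.04%, both lower in high fat rats), neither of them among these 4. The scaled signals of the groups did not overlap for 0 of 193 (0%). The smallest adjusted p of the 193 was 0.685. The median log2 fold change over the 193 miRNAs was -0.17 (high fat minus control), and 154 of them lay below 0, so the values of the 4 miRNAs are read against that shift. The shift depended on H3 and on the scaling: the median was -0.03 without H3 and 0.14 without scaling. The median of the 4 was -0.11. In whole muscle, fewer cells of a type and less RNA per cell cannot be told apart.

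miR-103 was the steadiest of the 4 miRNAs. Its scaled signal ran from 473 to 558 in control rats (median 530) and from 378 to 615 in high fat rats (median 459). The high fat group held both the lowest rat (A37) and the highest (H1), and its other rats, at 447 to 470, lay just below the lowest control rat. The means were 521 ± 38.1 (SD, n = 6) in control and 471 ± 78.0 (SD, n = 6) in high fat rats, a log2 fold change of -0.16 ± 0.13 (SE), with a 95% interval from -0.44 to 0.13 (0.737-fold to 1.09-fold) and a limma adjusted p of 0.685. The exact two-sided permutation test over every assignment of 6 and 6 rats gave p = 0.162. Relative to the median of all tested miRNAs the difference was 0.01 on the log2 scale. Leaving out H3 gave a log2 fold change of -0.06.

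miR-107, the near copy of miR-103, ran from 629 to 966 in control rats (median 806) and from 664 to 929 in high fat rats (median 741), with the high fat range inside the control range. The means were 803 ± 122 (SD, n = 6) and 762 ± 103 (SD, n = 6). The log2 fold change was -0.07 ± 0.14 (SE), with an interval from -0.38 to 0.24 (0.769-fold to 1.18-fold) and a limma adjusted p of 0.881 (exact permutation p = 0.558), and it was 0.03 without the high fat rat H3.

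**Figure D1:**
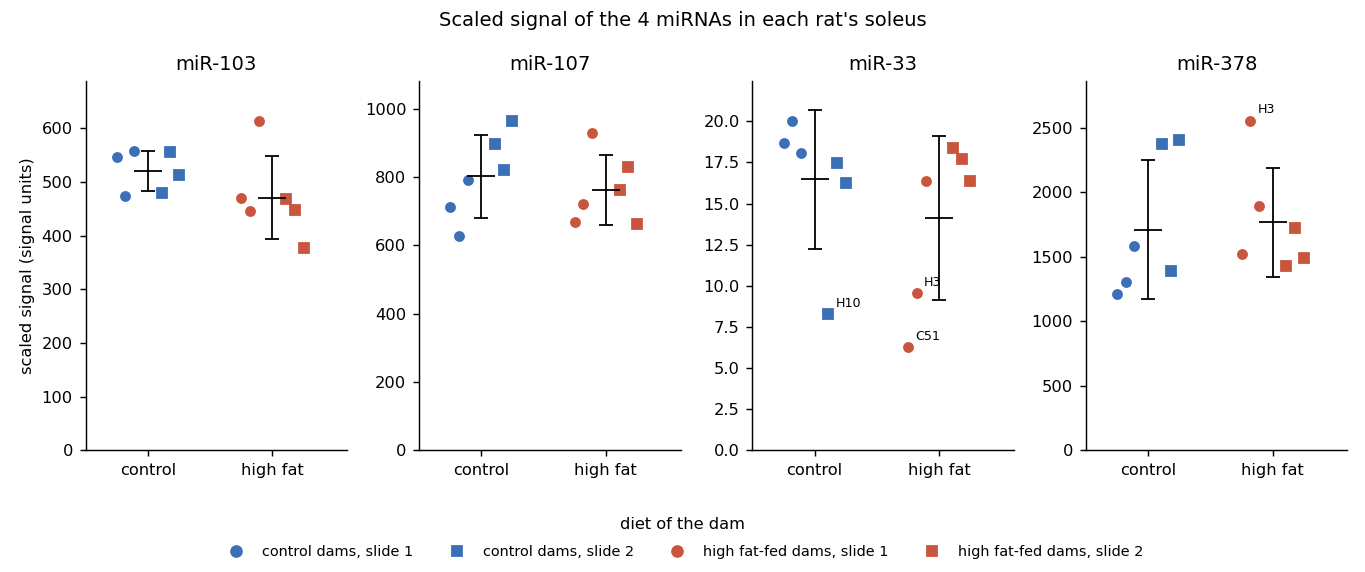
Scaled signal (y axis, signal units, from 0) of miR-103, miR-107, miR-33 and miR-378 in each rat by the diet of the dam (x axis), with circles for slide 1, squares for slide 2, and the mean and SD of each group of 6 in black. The groups overlapped for all 4 miRNAs, and the low miR-33 values of C51, H3 and H10 are labelled, as is the high miR-378 value of H3.

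miR-33, measured close to the floor, was lower in 3 rats, from both diet groups, than in the other 9. In control rats it ran from 8.29 to 20.04 (median 17.8), and in high fat rats from 6.26 to 18.4 (median 16.4). The 3 low rats were the high fat rats C51 (6.26) and H3 (9.58) and the control rat H10 (8.29), while the other 9 rats lay between 16.2 and 20.04. The scanner software's own error was 26.3% of the signal in C51, 19.7% in H3 and 26.9% in H10, and from 12.1% to 16.2% in the other rats, and the values are from separate rats, 1 reading each. The group means were 16.5 ± 4.20 (SD, n = 6) and 14.1 ± 4.97 (SD, n = 6), a log2 fold change of -0.27 ± 0.30 (SE) with an interval from -0.91 to 0.38 (0.532-fold to 1.30-fold) and a limma adjusted p of 0.733 (exact permutation p = 0.405). Without C51 the log2 fold change was -0.05 and without H3 it was -0.09, whereas without the control rat H10 it was -0.33.

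miR-378 was the only one of the 4 with a higher mean in high fat rats under the scaling used. It ran from 1208 to 2403 in control rats (median 1486) and from 1425 to 2554 in high fat rats (median 1620). Its 3 highest rats were the high fat rat H3 (2554) and the control rats A75 (2403) and H10 (2370), so the top of the range held rats of both diets. The means were 1709 ± 539 (SD, n = 6) in control and 1768 ± 422 (SD, n = 6) in high fat rats. The log2 fold change was 0.07 ± 0.22 (SE), with an interval from -0.39 to 0.54 (0.763-fold to 1.45-fold) and a limma adjusted p of 0.913 (exact permutation p = 0.738). Leaving out H3 gave a log2 fold change of 0.04. The sign turned without the control rat C73 (-0.01), and also when the letter of the rat's label was a block (-0.07).

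Of the partner strands, only miR-378* was detected. miR-103-1*, miR-103-2*, miR-107* and miR-33* were detected on 0 of 12 arrays, whereas miR-378* was detected on 12 of 12. miR-378* ran from 518 to 907 in control rats and from 498 to 914 in high fat rats, with means of 700 ± 164 (SD, n = 6) and 652 ± 150 (SD, n = 6). Its log2 fold change was -0.10 ± 0.19 (SE; limma adjusted p = 0.881), and 0.0029 without H3.

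The sign of the differences depended on the scaling between arrays for miR-103 and miR-107, but not for miR-378. For miR-33 it turned only when no scaling was done, and under the scalings run it lay from -0.27 to -0.09. miR-103 stayed below 0 with quantile normalization (-0.03). Without scaling, the log2 fold changes were 0.15 for miR-103, 0.24 for miR-107, 0.04 for miR-33 and 0.38 for miR-378, and the median over all tested miRNAs moved from -0.17 to 0.14 with them. Relative to the median under the scaling used, miR-107 stood at 0.10, miR-33 at -0.10 and miR-378 at 0.24. miR-378 was above 0 under all 5 settings of scaling run, no scaling among them, from 0.07 to 0.38, none of which passed the test.

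**Figure D2:**
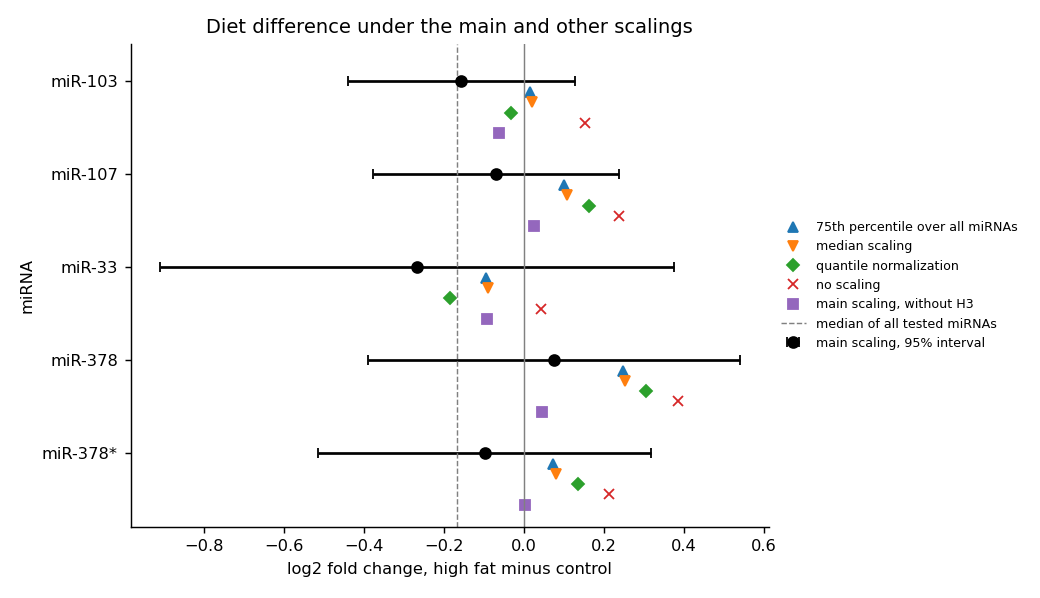
Log2 fold change, high fat minus control (x axis), of the 4 miRNAs and of miR-378* (y axis), with the 95% interval of the limma fit in black and coloured markers for 4 other settings of scaling, no scaling among them, and for the fit without H3. All 5 intervals cover 0, and 4 of the 5 values under the main scaling turn sign without scaling, all but miR-378.

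The rats differed least in miR-103 and most in miR-33. Within the diet groups the SD of the log2 signal was 0.18 for miR-103, and only 5 of the 162 miRNAs detected on all arrays had a smaller one. For miR-107 it was 0.21, with 17 smaller, and for miR-378 0.38, with 100 smaller. For miR-33 it was 0.55, with 140 smaller, against a median of 0.33 over the 162 miRNAs. The software's error was 7.55% to 8.15% of the signal for miR-103, 7.75% to 8.14% for miR-107 and 7.33% to 7.47% for miR-378. For miR-33, close to the floor, it was larger, at 12.1% to 26.9%. How much of the spread of miR-33 came from this error was not tested.

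The arrays of the 2 slides differed before scaling. As listed by the scanner software, before scaling, miR-107 was higher on all 6 arrays of slide 2 (832 to 1014 signal units) than on the 6 of slide 1 (506 to 808). The difference was 0.55 on the log2 scale (exact two-sided permutation p = 0.00216, the smallest that 6 arrays against 6 allow, and 0.0167 adjusted over the 193 miRNAs). Of all tested miRNAs 37 passed that adjusted test before scaling (19.2%), and the median difference between slides was 0.33. The other listed signals differed by 0.27 for miR-103 (adjusted p = 0.174 by the exact permutation test), 0.55 for miR-33 (adjusted p = 0.285) and 0.51 for miR-378 (adjusted p = 0.137). After scaling, 19 of 193 miRNAs passed (9.84%), and none of the 4 did: the differences were -0.13 for miR-103, 0.15 for miR-107, 0.15 for miR-33 and 0.11 for miR-378, with adjusted exact permutation p-values from 0.586 to 0.870.

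Within the slides, the diet differences of miR-33 and of miR-378 had opposite signs on slide 1 and slide 2. On slide 1 the scaled miR-33 signals were 20.04, 18.1 and 18.7 in control rats and 6.26, 16.4 and 9.58 in high fat rats, without overlap, as for 25 of the 193 miRNAs on that slide (13.0%). On slide 2 they were 16.2, 17.5 and 8.29 in control rats and 16.4, 18.4 and 17.7 in high fat rats, with overlap (31 of 193 miRNAs, 16.1%, did not overlap there). The log2 differences were -0.93 on slide 1 and 0.39 on slide 2, and their difference was 1.32 (exact permutation of diets within slides, p = 0.010, adjusted over the 193 miRNAs 0.420). At an unadjusted p under 0.05, 17 of 193 miRNAs (8.81%) had such a difference between slides, and 0 of 193 (0%) at an adjusted one. The low rats C51 and H3 were both on slide 1 and H10 was on slide 2.

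For miR-378 the slide 1 signals were 1304, 1582 and 1208 in control rats and 1520, 1895 and 2554 in high fat rats. On slide 2 they were 2403, 1390 and 2370 in control rats and 1493, 1425 and 1719 in high fat rats. The highest signals thus fell to high fat rats on slide 1 and to control rats on slide 2, but the diets overlapped on both. On slide 1 the control rat C60 (1582) lay above the high fat rat C51 (1520), and on slide 2 the control rat A89 (1390) was lowest. The log2 differences were 0.52 and -0.37 (difference of the slides -0.89, exact permutation within slides p = 0.050, adjusted 0.420). The differences were -0.05 on slide 1 and -0.26 on slide 2 for miR-103, and 0.11 and -0.25 for miR-107. Tests of diet that permuted rats within slides only, over 400 assignments, gave exact p-values of 0.155 for miR-103, 0.560 for miR-107, 0.435 for miR-33 and 0.760 for miR-378.

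The ratio of 2 miRNAs on the same array is not changed by a factor that divides the whole array, although quantile normalization, which is not such a factor, does change it. Since each probe has its own brightness, only differences of a ratio between arrays are read, not its size. miR-103 over miR-107 had a mean log2 ratio of -0.61 ± 0.24 (SD, n = 6) in control and -0.70 ± 0.14 (SD, n = 6) in high fat rats, a difference of -0.09 ± 0.11 (SE; exact two-sided permutation p = 0.450, and 0.450 adjusted over the 3 pairs compared). miR-378 over miR-103 was 0.23 ± 0.24 (SE) higher in log2 units (exact permutation p = 0.353, adjusted 0.450), and miR-378 over miR-107 was 0.15 ± 0.17 (SE) higher (exact permutation p = 0.442, adjusted 0.450). Without H3 these differences were 0.11 and 0.02. After quantile normalization the 3 differences were -0.195, 0.34 and 0.14. The 3 pairs with miR-33, added after the values were seen, had exact permutation p-values of 0.736, 0.567 and 0.468 (adjusted over all 6 pairs, 0.681 to 0.736).

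The ratio of miR-103 to miR-107 had a lower mean on slide 2, by a difference that missed the threshold after adjustment. It ran from 0.620 to 0.768 on slide 1 and from 0.531 to 0.677 on slide 2, where 5 of 6 arrays lay below the slide 1 range. The log2 ratio had means of -0.51 on slide 1 and -0.80 on slide 2, a difference of -0.28. The exact permutation test of the slides, chosen after the values were seen, gave p = 0.00866, or 0.0519 adjusted over 6 pairs, and p = 0.00649 without H3. Each slide held other rats, so slide and rat cannot be told apart.

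Both strands of the miR-378 hairpin could be compared in the same way. miR-378 over miR-378* was 1.95 to 2.33 in 5 rats of slide 1 and 2.52 to 2.90 in the 6 rats of slide 2, and 4.27 in H3. With H3 the log2 ratio was 0.19 higher on slide 2 (exact two-sided permutation p = 0.316). Without H3, left out after the values were seen, it was 0.36 higher (exact permutation p = 0.00216). H3 was the only array that broke the separation of the slides, so that p was fixed by leaving it out and is not read as a test. Among single miRNAs after scaling, 35 of 193 (18.1%) differed between slides at an unadjusted exact permutation p under 0.05. The diets differed by 0.17 with H3 (exact permutation p = 0.379) and by 0.04 without it (exact permutation p = 0.749).

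**Figure D3:**
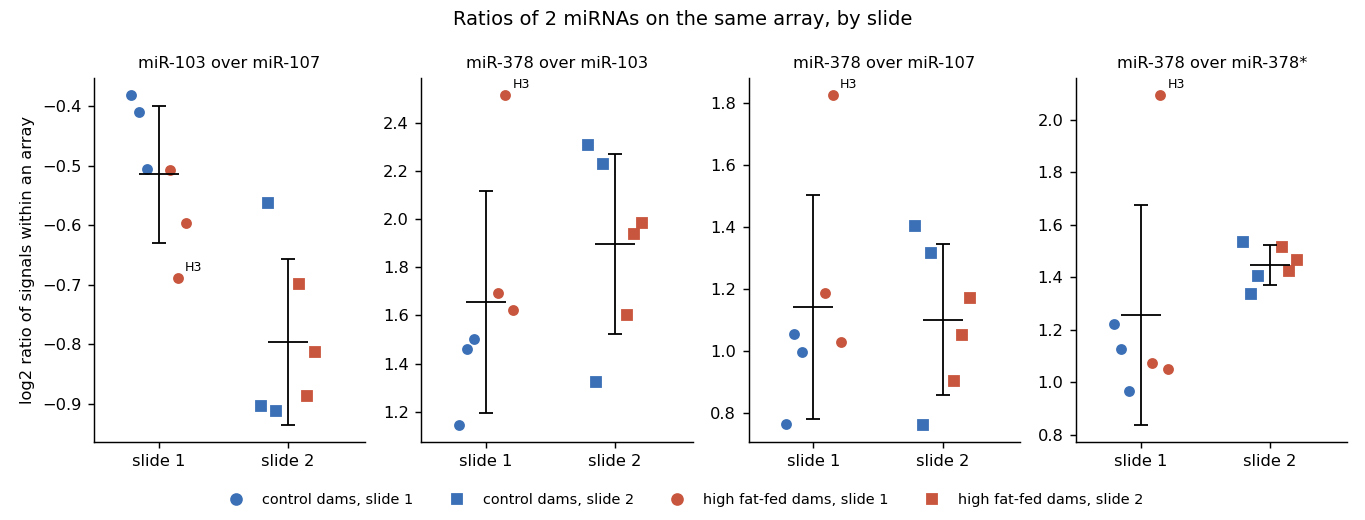
Log2 ratio of the signals of 2 miRNAs on the same array (y axis; the axes do not start at 0), for 4 pairs by slide (x axis), with diets in colour and the mean and SD of each slide's 6 arrays in black. miR-103 over miR-107 was lower on slide 2 (-0.80 against -0.51), and H3 lies above all other arrays in the 3 ratios with miR-378.

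Over the 12 rats, no pair of the 4 miRNAs had a correlation that passed adjustment over the 6 pairs. For miR-103 and miR-107, Pearson's r of the log2 scaled signals was 0.52 (permutation p = 0.0818, adjusted 0.246) and Spearman's rho 0.48 (permutation p = 0.121, adjusted 0.242). Within slides r was 0.82 on slide 1 and 0.72 on slide 2 (exact permutation p = 0.0417 and 0.107). Without H1 and A37, the rats farthest from the median of miR-103, r was 0.22. Before scaling, when the signals of an array share its brightness, r was 0.83.

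miR-107 and miR-378 had r = 0.59 (permutation p = 0.0479, adjusted 0.246) and rho = 0.61 (permutation p = 0.0396, adjusted 0.119). The r was 0.80 without H3, 0.38 without A75 and A110, the rats farthest from the median of miR-107, and 0.40 and 0.78 within the slides (exact permutation p = 0.444 and 0.0653). miR-33 and miR-378 had r = -0.46 (permutation p = 0.127, adjusted 0.254) and rho = -0.69 (permutation p = 0.0151, adjusted 0.0908). That r was 0.01 before scaling, -0.36 without H3, -0.77 without C51 and H10, the rats farthest from the median of miR-33, and -0.42 and -0.66 within the slides (exact permutation p = 0.411 and 0.0708). The other 3 pairs had r from -0.06 to 0.23 (permutation p-values from 0.458 to 0.859, adjusted 0.687 to 0.859).

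The 2 strands of the miR-378 hairpin correlated at r = 0.61 (permutation p = 0.0391) and rho = 0.66 (permutation p = 0.0238), a pair added after the values were seen. H3 was the rat off the line, and without it r was 0.81. On slide 2 r was 0.98 (exact permutation p = 0.00833), and on slide 1, which holds H3, it was 0.30 (exact permutation p = 0.553). Without H3 and A75, the rats farthest from the median of miR-378, r was 0.75.

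Each of the 4 miRNAs had its own closest companions among the other 161 miRNAs detected on all arrays. These correlations describe the same 12 arrays under 1 scaling, and carry no test. miR-378 was most alike miR-133a (r = 0.96 over the 12 arrays), miR-1 (0.91) and miR-30b-5p (0.90), of which miR-133a and miR-1 are the miRNAs of striated muscle. Like miR-378, miR-133a was highest in A75 (3416), H3 (2976) and H10 (2720), and lowest in C73 (1365) and A110 (1371). Without H3 the r with miR-133a was 0.96 as well.

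miR-103 was most alike miR-181a (r = 0.92), miR-652 (0.88) and miR-181b (0.87), and miR-107 was most alike miR-98 (0.86), a let-7 family member, miR-664 (0.82) and miR-26a (0.78). Despite their shared sequence, miR-103 and miR-107 were thus not among each other's 3 closest miRNAs. miR-33 was most alike miR-219-5p (0.80), miR-362* (0.80) and miR-29b (0.71), the lowest values of the 4 sets. miR-219-5p had scaled signals from 12.6 to 53.8.

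**Figure D4:**
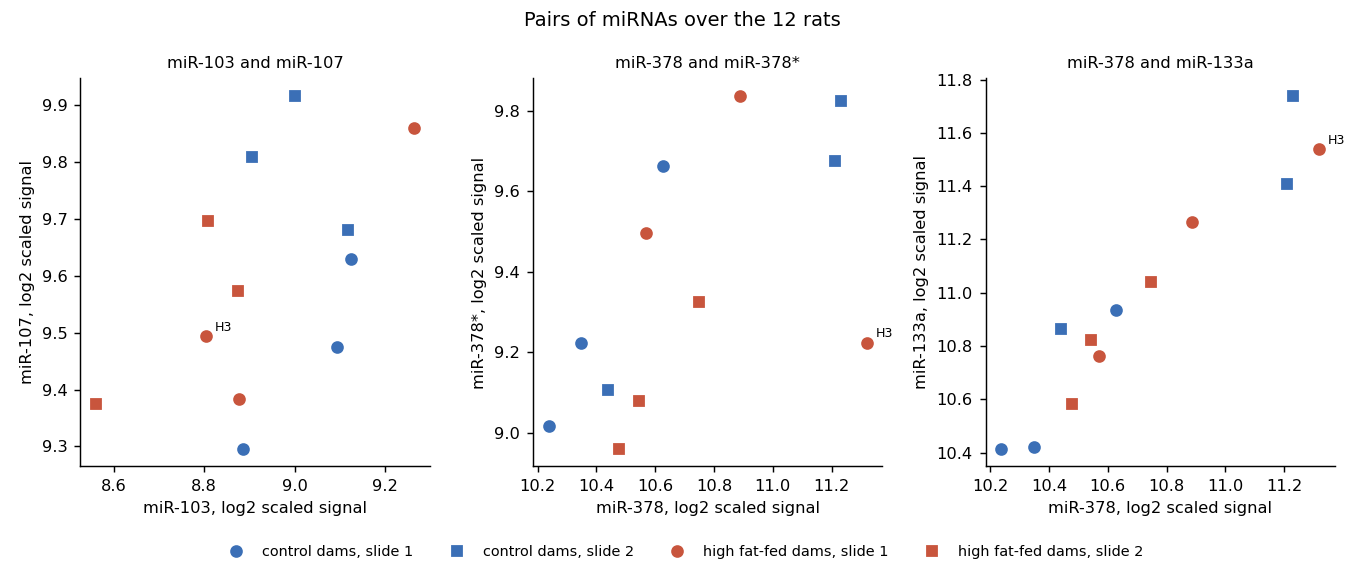
Log2 scaled signals of miR-103 and miR-107, of miR-378 and miR-378*, and of miR-378 and miR-133a, with 1 point per rat, diets in colour and slides by shape. miR-103 and miR-107 had r = 0.82 on slide 1 and 0.72 on slide 2, H3 lies off the line of the miR-378 strands, and all 12 rats follow the line of miR-378 and miR-133a (r = 0.96).

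The miRNAs related to these 4 by sequence, role or gene position passed the adjusted test in no case either. The miR-15 family members, which repress cell cycle and other targets through the overlapping seed, were all tested (5 of 5), with 0 called by limma, a median log2 fold change of -0.15 and values from -0.32 (miR-497, adjusted p = 0.685) to -0.13 (miR-322, adjusted p = 0.879). All 5 values lay below 0, as did 154 of the 193, and without scaling their median was 0.16. miR-497 was at -0.13 without H3 and at -0.0096 without scaling.

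Of 25 miRNAs with a known part in cholesterol, lipid or insulin action, 22 were tested and 0 were called at either threshold. Their median was -0.20, and 19 of the 22 lay below 0, beside 154 of all 193. Without scaling the median was 0.11, and without H3 it was -0.01. miR-96 was lowest, with a log2 fold change of -1.55 ± 0.95 (SE, limma adjusted p = 0.685), and -1.0 without H3. Its means were 114 ± 77.2 (SD, n = 6) in control and 66.6 ± 95.4 (SD, n = 6) in high fat rats. It was detected on 10 of 12 arrays, and its log2 fold change depended on the floor. With the floor 4 times lower it was -2.22, and with the floor 4 times higher -1.02. miR-122, the main liver miRNA, was highest, with 0.36 ± 1.20 (SE, limma adjusted p = 0.931), and was also detected on 10 arrays. Its means had the opposite order, at 123 ± 168.5 (SD, n = 6) in control and 106 ± 114 (SD, n = 6) in high fat rats. The pancreatic islet miRNA miR-375 and miR-802 were detected on 0 of 12 arrays.

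Of 35 other miRNAs listed as intronic, 34 were on the array and 26 were tested, with 0 called at the adjusted and 1 at the unadjusted threshold, where 2 of all 193 (1.04%) passed. That 1 was miR-204, of the ion channel gene Trpm3, with means of 141 ± 40.1 (SD, n = 6) in control and 87.0 in high fat rats, a log2 fold change of -0.80 ± 0.32 (SE) and a limma adjusted p of 0.685 (unadjusted 0.0251). Without H3 its log2 fold change was -0.47. The highest was miR-425 of Dalrd3, with 0.29 ± 0.16 (SE, adjusted p = 0.685), and 0.60 without scaling. The median of the 26 was -0.18, close to the -0.17 of all tested miRNAs, and without H3 the medians were -0.03 and -0.03 (without scaling 0.13 and 0.14). The listed host was found around the miRNA gene in the GRCr8 table for 34 of the 35.

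**Figure D5:**
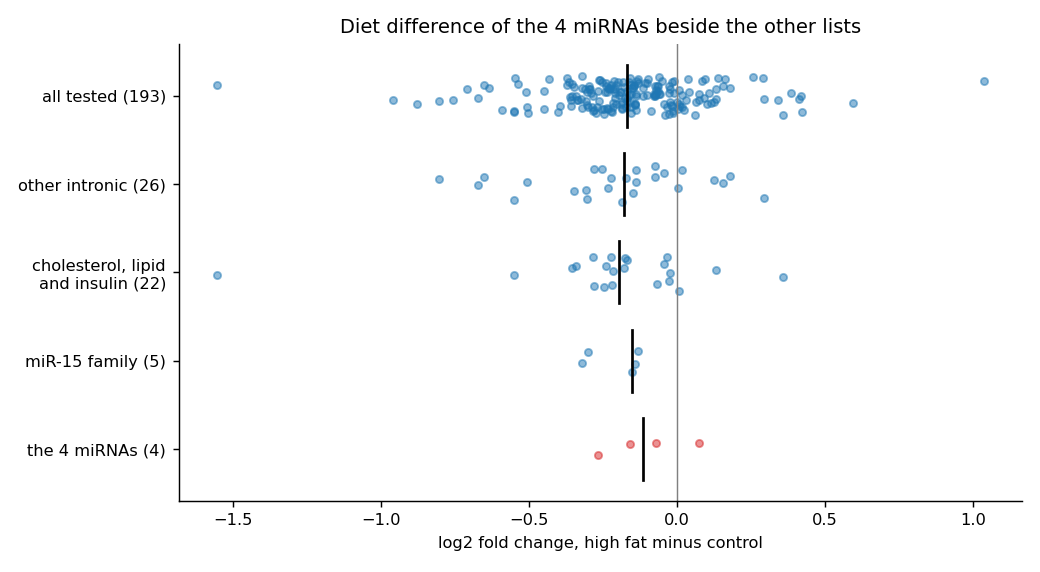
Log2 fold change, high fat minus control (x axis), with 1 point per miRNA, for all 193 tested miRNAs, for 3 lists and for the 4 intronic miRNAs of metabolic host genes (y axis, number of miRNAs in brackets; vertical jitter only separates points), and black lines at the medians. The 4 miRNAs lie between -0.27 and 0.07, within the bulk of all tested miRNAs, whose median is -0.17.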

How the data were processed

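Soleus RNA of 12 rats was hybridised to 1-colour Agilent rat miRNA arrays. The authors deposited, per array, the total signal intensity per miRNA from the scanner software with an error and a flag for detection, background already subtracted and spots combined, without scaling between arrays; the software version is not given in the sources used here. Undetected miRNAs are listed at 0.10. The value table of the series held the same intensities (0 values differed by over 0.01) and served as an alternative. The 22 control rows were left out. Scaled signals (75th percentile over 162 miRNAs, floor 5.165) were put on the log2 scale and fitted with limma 3.58.1 in R 4.3.3, as control subtracted from high fat. Adjustment was by Benjamini-Hochberg for the 193 miRNAs, after the fit was tested on simulated data. Permutation tests and correlations (100000 permutations) used Python 3.11.15 with numpy 2.4.6. The paper's methods and tables give different numbers of rats, so all 12 arrays were used. The number of arrays limits the precision.

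The members and lists were chosen with earlier results of these data known. Named miRNAs were the 4 members, their partner strands, the 3 most alike of each, and the extremes of each list. Slides come from the array names. Alternatives covered scaling, floor, detection filter, blocks, tests and each rat left out. The tests of slides on ratios, of diet differences between slides and of slides over all tested miRNAs, and the alternatives for miR-378* and the list extremes, were chosen after the values were seen.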

Additional observations from a re-analysis of the deposited data

Results flagged for a closer look

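In 24 groups of 6 rats (the 4 miRNAs, miR-378* and 7 ratios within arrays, each in both diets), 3 held a rat far from the others, against 1.20 that chance gives at 1 in 20 groups. The control rat H10 had a scaled miR-33 signal of 8.29, while the other control rats lay between 16.2 and 20.04. The same rat had a log2 ratio of miR-103 over miR-33 of 5.85, against 4.56 to 4.99 in the other control rats, which rests on the same reading. The high fat rat H3 had a log2 ratio of miR-378 over miR-107 of 1.83, against 0.90 to 1.19 in the other high fat rats.

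The diet difference of miR-33 was -0.93 on slide 1 and 0.39 on slide 2 on the log2 scale, a difference of 1.32 between the slides (exact permutation of diets within slides, p = 0.010, adjusted over the 193 miRNAs 0.420). The test was chosen after the values were seen, and the smallest p it allows is 0.0050. The rats with low miR-33 were C51 and H3, high fat rats of slide 1, and H10, a control rat of slide 2.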

How the results depend on the processing

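Under the 27 alternatives, 0 of the tested miRNAs passed the adjusted threshold in any, with smallest adjusted p-values from 0.363 to 0.998, while the number at an unadjusted p under 0.05 ran from 1 to 15 (2 as reported, 8 with slide as a block, 12 with array weights, 6 with quantile normalization or median scaling, 15 without H1 and 1 without H3). The log2 fold changes turned sign as follows, with no cause tested. Where all 677 miRNAs set the 75th percentile, they were 0.0148 for miR-103, 0.101 for miR-107, 0.0733 for miR-378* and 0.0411 for miR-322. With the median over the common miRNAs they were 0.0205, 0.106, 0.0790 and 0.0467 in that order. Without scaling they were 0.153, 0.239, 0.211 and 0.179, and 0.0418 for miR-33. With quantile normalization they were 0.163 for miR-107, 0.134 for miR-378* and 0.0482 for miR-322, which was 0.0474 with array weights. With the letter of the label as a block they were -0.0704 for miR-378 and -0.52 for miR-122. With 1 rat left out the values ran from -0.24 to -0.04 for miR-103, from -0.14 (without A110) to 0.0864 (without H10) for miR-107, from -0.36 to -0.05 for miR-33, from -0.0142 (without C73) to 0.30 (without H10) for miR-378, from -0.20 to 0.0754 for miR-378*, from -0.24 to 0.18 for miR-322 and from -0.18 to 1.09 for miR-122. miR-107 was 0.03 without C60, 0.03 without H3 and 0.0058 without A37, miR-378* was 0.05 without C60 and 0.0029 without H3, miR-322 was 0.0071 without H10, and miR-122 was -0.15 without C25. The other extremes of the lists and the 3 ratios kept their sign under every alternative run, among them each rat left out (miR-103 over miR-107 from -0.15 to -0.04, miR-378 over miR-103 from 0.11 to 0.36, and miR-378 over miR-107 from 0.02 to 0.22). For the ratios, only quantile normalization and leaving out a rat could turn a sign. Their other alternatives (floor, value table, slide as a block and t-test) left the differences as they were. With the floor raised 4 times miR-33 lay at the floor on all arrays and gave no value. No paired analysis was possible because the labels give the diet groups no shared replicate numbers.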
